A study of Rattus norvegicus with 45 samples.

Results

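The comparison described here set the soleus, a postural muscle of the calf made mostly of slow fibres, against the gastrocnemius, its larger and mostly fast neighbour, in rats that ran on a treadmill while they received cerivastatin at 1.0 mg/kg each day. Its members were the 4 soleus and 4 gastrocnemius arrays whose labels give that dose and exercise, 8 of the 45 arrays in the series, with 1 muscle sample on each array. All animals were female Sprague Dawley (SD) rats, dosed once daily for 14 days. The vehicle given to the control animals was 0.5% methylcellulose, and the exercised vehicle animals, 4 soleus and 4 gastrocnemius arrays, are the reference used below. In all 4 of these groups the rats ran on the treadmill 5 days a week, 20 min a day, at a speed of 20 m/min. A further 3 soleus and 3 gastrocnemius arrays came from high-dose rats that did not run. The study asked, among other aims, what role fibre type has in a muscle's sensitivity to statins, and its design text states that no dose of the drug affected the soleus. Replicates are called biological there, so the spread of arrays within a group is between animals. The labels give no link between a soleus and a gastrocnemius of 1 rat. About 3 µg of soleus RNA and 4 µg of gastrocnemius RNA were labelled, so that RNA input and muscle cannot be told apart.

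Cerivastatin blocks the synthesis of mevalonate. Mevalonate feeds the synthesis of cholesterol, of ubiquinone and of the farnesyl and geranylgeranyl lipids that anchor Ras, Rac and other small GTPases to membranes. When sterols fall, the SREBP transcription factors raise the genes of that pathway. Slow fibres rely on mitochondrial respiration and carry the slow isoforms of myosin, troponin and the calcium pump, whereas fast fibres rely more on glycolysis and glycogen and carry the fast isoforms. Muscle fibre injury is followed by entry of macrophages, by cell division and by fibre regeneration from satellite cells.

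Each value is a MAS5 signal, a linear intensity for 1 probe set on 1 array. Per-array values are given in the order of replicates 1 to 4. Differences are soleus minus gastrocnemius on the scale of log2(signal + 12.4), with the standard error (SE) of the fit and a p-value from limma adjusted by the Benjamini-Hochberg method over 21729 probe sets. A gene passed, and is said to be higher or lower, where this adjusted p was under 0.05. Fold values are taken from the same scale, which understates the fold of genes with a low signal.

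Some arrays stood apart within their group. Gastrocnemius replicates 2 and 4 at the high dose had far lower levels of muscle fibre genes than replicates 1 and 3: the mean log2 level of the slow fibre list was 13.56, 8.63, 13.26 and 10.01 in that group, against 14.28, 14.99, 14.79 and 14.95 in soleus. Vehicle gastrocnemius varied as well, with slow fibre levels of 11.69, 14.23, 11.15 and 8.61. Soleus replicate 1 at the high dose had more RNA of adipocyte genes (mean log2 level 12.56, 10.61, 10.87 and 10.88 over the group) and of Schwann cell and nerve genes (11.58, 8.73, 8.75 and 8.99) than the other three. It also had less of the muscle gene lists. Vehicle soleus replicates 3 and 4 had high signals for Myh4, the fast myosin of type IIB fibres (98.4, 101, 37989 and 18217 over the group). RNA integrity was read from control probes at both ends of a transcript. The 5' over 3' value for actin was 0.245 to 0.492 in high-dose soleus and 0.437 to 0.578 in high-dose gastrocnemius. For Gapdh it was 0.624 to 0.784 and 0.733 to 0.806. Where leaving out 1 array ended the call of a gene named here, or moved a called log2 difference or a count of genes by more than 1.5 times, this is given beside it. What part these array differences have in the results was not tested beyond that.

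At the high dose, 4387 of the 11684 genes tested (37.5%) differed between the muscles of exercised rats. Soleus was lower for 2362 genes (20.2%) and higher for 2025 (17.3%), and the median over all genes was -0.02. In vehicle animals, 1769 genes (15.1%) differed, 883 (7.56%) higher and 886 (7.58%) lower in soleus, with a median of 0.07. Without vehicle gastrocnemius replicate 4 this count was 1106. Counts of list members below are to be read beside these shares of all genes. The 2 comparisons share no arrays, and most genes were called in only 1 of them. Of the 2362 genes lower in soleus at the high dose, 179 (7.58%) were also lower in vehicle animals and 97 (4.11%) were higher there. Of the 2025 higher ones, 304 (15%) were higher and 93 (4.59%) lower in vehicle animals. Seen from the vehicle side, 614 of the 886 genes lower in soleus (69.3%) and 482 of the 883 higher ones (54.6%) did not pass at the high dose. Across the 11684 genes, which are not independent replicates, the 2 differences had a Pearson correlation of 0.103 and a Spearman correlation of 0.0025.

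The change of the muscle difference with the drug, tested as an interaction over the 16 arrays of both doses, passed for 3420 genes (29.3%). It was downward, with soleus lower relative to gastrocnemius than in vehicle animals, for 1960 genes (16.8%) and upward for 1460 (12.5%). Within the gastrocnemius, 6120 genes (52.4%) differed between high dose and vehicle, 3420 (29.3%) higher and 2700 (23.1%) lower at the high dose. Within the soleus, limma called 0 genes (0%), with 738 probe sets (3.4%) at an unadjusted p under 0.05, and with array weights it called 1. Without overlap at the high dose, 1551 genes (13.3%) had every soleus array above every gastrocnemius array, and 2009 (17.2%) had every soleus array below.

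**Figure D1:**
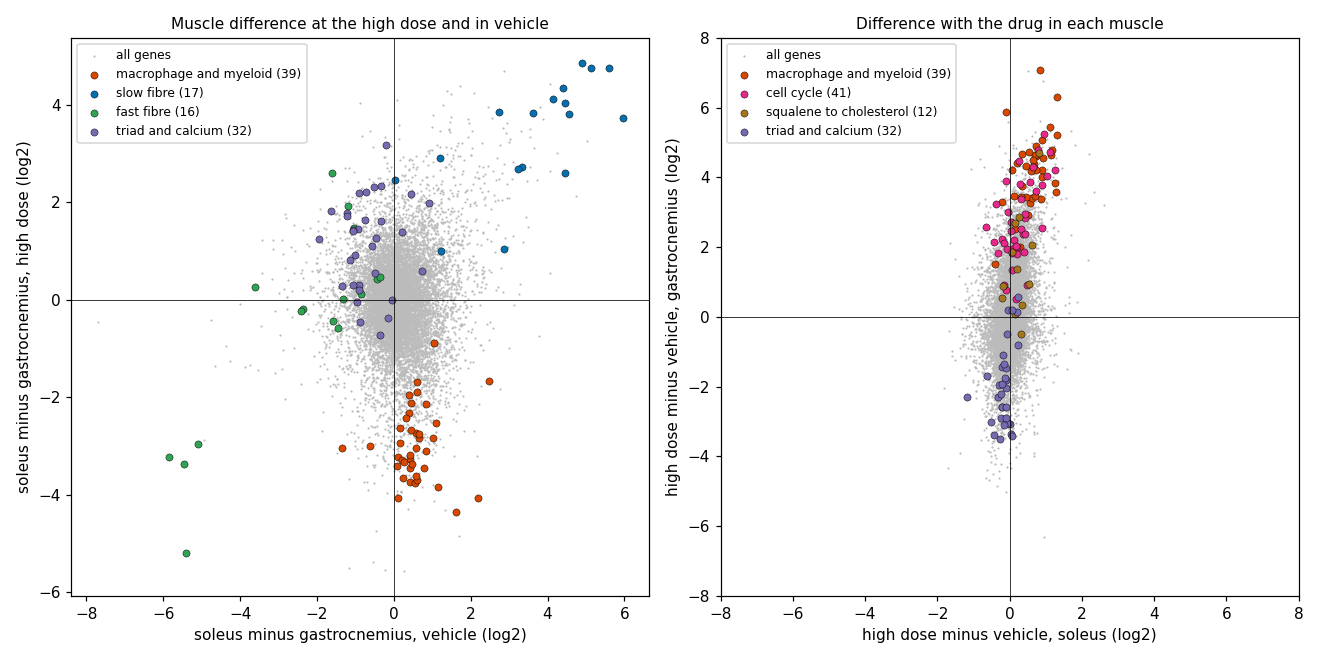
Left, the soleus minus gastrocnemius difference (log2) of 11684 genes in exercised vehicle rats (x axis) and at the high dose (y axis), with 4 gene lists in colour. Right, the high dose minus vehicle difference (log2) in soleus (x axis) and in gastrocnemius (y axis). Macrophage and myeloid genes lie below 0 at the high dose, most slow fibre genes have high positive values on both axes of the left panel, and in the right panel the genes spread along the gastrocnemius axis far more than along the soleus axis.

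Macrophage and myeloid cell genes were lower in soleus at the high dose. In that list, 38 of its 39 tested members were lower and 0 higher, with a median of -3.04, and the arrays of the 2 muscles did not overlap for any of those that passed. In vehicle animals 2 members were higher in soleus and 0 lower, with a median of 0.48, and leaving out any 1 of the 8 vehicle arrays left 1 higher. The interaction was downward for 37 of 39 members. The mean log2 level of the list was 11.41, 12.41, 12.07 and 12.75 in high-dose gastrocnemius and 9.89, 8.58, 8.98 and 9.30 in high-dose soleus. Vehicle gastrocnemius read 8.13, 7.92, 8.02 and 7.92 and vehicle soleus 8.38, 7.87, 8.97 and 9.01, so every vehicle gastrocnemius array lay below every high-dose soleus array, while the soleus groups overlapped. Soleus replicate 1 was the highest of the soleus arrays. In whole muscle, fewer cells of a type and less RNA per cell cannot be told apart.

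Gpnmb, a glycoprotein of lipid-laden and repair macrophages, read 2372, 1531, 1140.1 and 1432 in high-dose soleus and 26376, 27502, 43413 and 34386 in high-dose gastrocnemius, a difference of -4.36 ± 0.70 (SE, adjusted p = 1.63e-05). Its signals were 1439.6, 1089.6, 1657 and 3054 in vehicle soleus and 594, 349, 765 and 546 in vehicle gastrocnemius, so soleus was above gastrocnemius on the vehicle arrays and below it on the high-dose arrays, with an interaction of -5.96 ± 1.0 (SE, adjusted p = 0.000222). Spp1, which encodes the secreted phosphoprotein osteopontin, read 2607, 701, 1148 and 1256 in soleus against 10524, 19592, 35518 and 28753 in gastrocnemius, and the difference was -4.06 ± 0.74 (SE, adjusted p = 7.72e-05). On the vehicle arrays Spp1 read 707, 615, 614 and 926 in soleus and 129, 187, 134 and 141 in gastrocnemius, with soleus above, and the interaction was -6.24 ± 1.05 (SE, adjusted p = 0.000222). Cd68, a lysosomal protein of macrophages, was 353 to 691 in soleus and 2560.4 to 10719.5 in gastrocnemius, with a difference of -3.75 ± 0.63 (SE, adjusted p = 2.86e-05) and an interaction of -4.16 ± 0.89 (SE, adjusted p = 0.00131). No soleus array of these genes reached the lowest gastrocnemius array.

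Genes outside the list followed it. Arg1, the arginase that marks alternatively activated macrophages, was 41.8-fold lower in soleus (-5.38 ± 0.61 SE, adjusted p = 1.39e-07), at 204, 47.3, 120 and 56.1 against 2269, 6498, 3878 and 6150.5, and its interaction was -4.85 ± 0.86 (SE, adjusted p = 0.00033). Lilrb4, an inhibitory receptor of myeloid cells, was 46.4-fold lower, at 31.6, 79.4, 23 and 26.9 against 1113, 3191, 2161 and 3318, with a difference of -5.54 ± 0.61 (SE, adjusted p = 1.34e-07) and an interaction of -5.31 ± 0.86 (SE, adjusted p = 0.000204). Vehicle soleus was at 60 to 123 for Arg1 and 65.6 to 138 for Lilrb4, near the high-dose soleus and far below the high-dose gastrocnemius. Within the list, Fcgr2b, an inhibitory receptor for IgG, differed by -3.84 ± 0.64 (SE, adjusted p = 2.53e-05), with an interaction of -4.98 ± 0.91 (SE, adjusted p = 0.000388). Tyrobp, the adaptor of activating myeloid receptors, differed by -4.07 ± 0.58 (SE, adjusted p = 3.47e-06), and the myeloid transcription factor gene Irf8 by -2.47 ± 0.47 (SE, adjusted p = 0.000122).

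Among chemokines, cytokines and their receptors, 14 of 26 members were lower in soleus at the high dose and 2 higher, with a median of -1.41. Ccl2, which draws monocytes into tissue, read 1112, 229, 375 and 604 in soleus and 12887, 15787, 11769.6 and 18252 in gastrocnemius, and 184 to 599.9 and 16.6 to 198 in the vehicle muscles. Gastrocnemius at the high dose thus stood clear of the other 3 groups. The muscle difference was -4.84 ± 0.86 (SE, adjusted p = 5.26e-05) and the interaction -6.54 ± 1.21 (SE, adjusted p = 0.00043). Ccl7, another monocyte chemokine, read 503, 74.4, 75.8 and 276 in soleus and 9564, 11818, 5015 and 9752 in gastrocnemius. It had the most negative difference of all genes, at -5.56 ± 0.80 (SE, adjusted p = 4.11e-06), with an interaction of -5.81 ± 1.14 (SE, adjusted p = 0.00065). Ccr1, a chemokine receptor of monocytes and neutrophils, differed by -3.01 ± 0.76 (SE, adjusted p = 0.00251).

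The other blood cell lists were smaller. In the lymphocyte list, 25 genes had a probe set and 14 of those 25 passed the filter on low signals. Of these 14, 6 were lower and 0 higher in soleus, with a median of -0.50. Cd4, carried by helper T cells and, in rats, by macrophages, was 1 of them and read 165, 16.2, 138 and 239.8 against 321, 609.6, 1014 and 1261, a difference of -2.61 ± 0.51 (SE, adjusted p = 0.000169). RT1-DMa, which helps load peptides onto class II molecules, differed by -2.25 ± 0.38 (SE, adjusted p = 3.45e-05). Of 15 neutrophil genes 9 had a probe set, and 4 of those 9 passed the filter on low signals. Of these 4, 3 were lower in soleus and 0 higher. The count of lower members was 1 without gastrocnemius replicate 1 or 2 or 4 or soleus replicate 3 or 4. Within the gastrocnemius all 4 were higher at the high dose than in vehicle animals, with a median of 3.38. Whether the filter favoured genes raised there was not tested. S100a9, a calcium-binding protein of neutrophils and monocytes, had overlapping arrays of 698, 404, 366 and 273 and 1924, 7203, 535 and 1763, and its difference of -2.18 ± 0.85 (SE, adjusted p = 0.0458) lost its call without gastrocnemius replicate 1, 2 or 4 or soleus replicate 2, 3 or 4 (adjusted p up to 0.218). It did not pass with an offset of 1, no filter, median centring or no mean-dependent prior either. In the list of complement, interferon and antigen processing genes, 15 of 27 members were lower and 0 higher, with a median of -1.04. That count was 9 without soleus replicate 2. The receptors of the complement fragments C3a and C5a, C3ar1 and C5ar1, differed by -2.75 ± 0.54 (SE, adjusted p = 0.000168) and -2.50 ± 0.42 (SE, adjusted p = 2.94e-05).

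**Figure D2:**
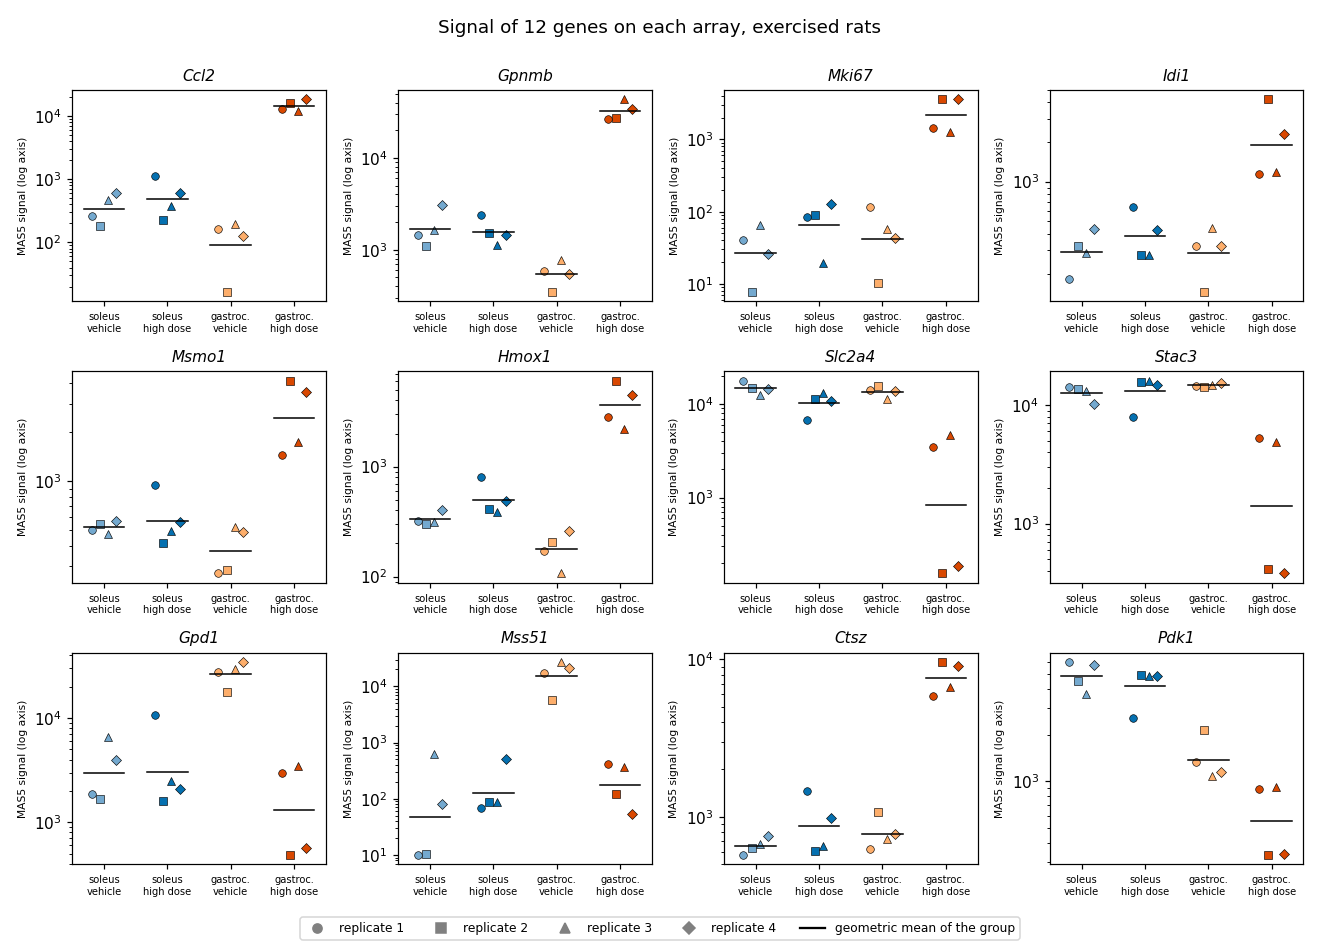
MAS5 signal (log axis) of 12 genes on each of the 16 arrays of exercised rats, by muscle and dose; marker shapes are the replicates and the line is the geometric mean of the group. Ccl2, Gpnmb, Mki67, Idi1, Msmo1, Hmox1 and Ctsz are high in gastrocnemius at the high dose, Slc2a4 and Stac3 are lower there than in the other groups with replicates 2 and 4 lowest, Gpd1 and Mss51 are highest in vehicle gastrocnemius, and Pdk1 is higher in soleus at both doses.

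Genes of cell division followed the same pattern of levels. In high-dose animals 38 of 41 tested members were lower in soleus and 0 higher, with a median of -2.41. In vehicle animals 1 was higher and 0 lower, with a median of -0.06, and the interaction was downward for 31. Mki67, a nuclear protein of proliferating cells, read 84.8, 89.8, 19.7 and 129 in soleus and 1416, 3586, 1257 and 3569.6 in gastrocnemius, a difference of -4.74 ± 0.76 (SE, adjusted p = 1.43e-05) with an interaction of -4.28 ± 1.07 (SE, adjusted p = 0.00404). Vehicle soleus was at 7.8 to 64.9 and vehicle gastrocnemius at 10.2 to 116, so soleus replicates 1, 2 and 4 lay above vehicle soleus, and every high-dose gastrocnemius array lay far above all of these. Cks2, a subunit that binds cyclin-dependent kinases, differed by -3.93 ± 0.85 (SE, adjusted p = 0.000509), the mitotic kinase gene Plk1 by -3.76 ± 0.61 (SE, adjusted p = 1.61e-05) and Aurkb, a kinase of the chromosomal passenger complex, by -3.61 ± 0.60 (SE, adjusted p = 2.44e-05). The mean log2 level of the cell cycle list was 9.43, 10.51, 9.40 and 10.39 in high-dose gastrocnemius and 7.68, 7.08, 7.32 and 7.87 in high-dose soleus. Like the macrophage list it was highest in high-dose gastrocnemius, but the order of the replicates differed between the lists. Which cells divided was not tested.

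The 250 bases before the annotated start of each gene (RefSeq, build GRCr8) were searched on both strands. The letters sought are textbook elements of cell cycle, cholesterol and myeloid genes. Whole lists were searched, with members that were not called or, as for Hmgcs1, not tested. The CCAAT box (CCAAT) was found in 29 of 39 cell cycle promoters (74.4%) and in 17 of 20 promoters of the mevalonate and cholesterol lists with Insig1 added (85%), against 34.3% of all 27457 promoters. The cell cycle element CHR (TTTGAA) was in 15 of the 39 cell cycle promoters (38.5%) and 16% of all. The sterol element searched as TCACNCCAC was in 0 of the 20 cholesterol promoters and in 0.976% of all. Matches of different motifs were counted separately and may overlap. An octamer bound by PU.1 in myeloid genes (GAGGAAGT) was in 3 of 31 macrophage promoters (9.68%) and 2.04% of all. The 7 stretches below are shown because they hold these letters in genes whose values are given here. Capitals mark CCAAT or its reverse complement in the first 6 and TTTGAA in the last.
Idi1: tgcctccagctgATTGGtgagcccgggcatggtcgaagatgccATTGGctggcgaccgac
Fdps: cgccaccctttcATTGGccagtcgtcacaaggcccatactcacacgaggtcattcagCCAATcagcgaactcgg
Msmo1: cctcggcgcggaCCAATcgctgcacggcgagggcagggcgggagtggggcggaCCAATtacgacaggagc
Insig1: cgccctcctcccATTGGctcccgcggcct
Cks2: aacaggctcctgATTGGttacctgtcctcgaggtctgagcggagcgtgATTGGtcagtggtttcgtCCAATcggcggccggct
Plk1: aaatccccgcggCCAATcagcaacgcgca
Mki67: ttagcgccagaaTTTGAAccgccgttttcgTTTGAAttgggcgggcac
These lie at chr17:66547543-66547602 (minus strand), chr2:176804885-176804958 (minus), chr16:29746992-29747061 (plus), chr4:8057946-8057974 (minus), chr17:13727545-13727627 (minus), chr1:186147608-186147636 (plus) and chr1:199952675-199952722 (minus), all upstream of the annotated start of the gene. A match of letters is a description and not a bound site.

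Enzymes of the mevalonate and cholesterol pathway were lower in soleus than in gastrocnemius at the high dose. The median difference of high-dose from vehicle animals was 0.77 for mevalonate genes and 1.16 for the later enzymes within the gastrocnemius, and 0.01 and 0.24 within the soleus. In the mevalonate and isoprenoid list 5 of 9 members were lower and 0 higher, with a median of -0.75. Between squalene and cholesterol, 8 of 12 were lower and 0 higher, with a median of -1.22. In vehicle animals 1 mevalonate gene was higher and 1 lower, and 0 of the later enzymes passed. The mean log2 level from squalene to cholesterol was 9.18, 10.42, 9.38 and 9.95 in high-dose gastrocnemius, highest in replicates 2 and 4, where the macrophage list was also highest. It was 9.0, 8.21, 8.31 and 8.43 in high-dose soleus and 8.06 to 8.44 in vehicle gastrocnemius. The part of the macrophage level in this difference was not tested.

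Sqle, squalene epoxidase and a slow step of sterol synthesis, read 88.3, 81.5, 98.6 and 194 in soleus and 490, 2870, 790.3 and 1523 in gastrocnemius, a difference of -3.25 ± 0.60 (SE, adjusted p = 9.45e-05). Its vehicle signals were 18.7 to 116 in soleus and 7 to 62.1 in gastrocnemius, so the high-dose gastrocnemius lay far above the other groups, and the interaction was -3.89 ± 0.85 (SE, adjusted p = 0.00149). Idi1, which interconverts the basic isoprenoid units, read 646, 279, 278 and 429 and 1139.8, 4229, 1194 and 2314, differing by -2.28 ± 0.37 (SE, adjusted p = 1.83e-05) with an interaction of -2.31 ± 0.53 (SE, adjusted p = 0.00203). Fdps, which joins these units to farnesyl diphosphate, differed less, by -0.93 ± 0.22 (SE, adjusted p = 0.00116), at 1817 to 2152 in soleus and 2966 to 6606 in gastrocnemius. Acat2, the thiolase that starts the pathway, differed by -1.78 ± 0.39 (SE, adjusted p = 0.000674). Of the later enzymes, Msmo1 differed by -2.08 ± 0.32 (SE, adjusted p = 9.03e-06) and Cyp51, lanosterol demethylase, by -2.02 ± 0.32 (SE, adjusted p = 1.21e-05). Dhcr7, the last reductase, did not pass, at -1.15 ± 0.60 (SE, adjusted p = 0.146), and soleus replicate 1 was its highest soleus array (1053, 135, 256 and 188).

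Of sterol regulators 5 of 15 were lower in soleus and 3 higher, against 20.2% and 17.3% of all genes. Insig1, which retains the SREBP complex when sterols are high and is itself an SREBP target, was lower in soleus, at -2.18 ± 0.43 (SE, adjusted p = 0.000191), with an interaction of -2.46 ± 0.61 (SE, adjusted p = 0.00367), though soleus replicate 1 (2173, 823, 727 and 763) exceeded the lowest gastrocnemius array (5217, 6938, 2112 and 5717). Soat1, which esterifies cholesterol and is abundant in macrophages, differed by -3.59 ± 0.56 (SE, adjusted p = 1.01e-05), and Npc2, which exports cholesterol from lysosomes, by -1.46 ± 0.27 (SE, adjusted p = 9.72e-05). Srebf1, which encodes the SREBP of fatty acid synthesis, was higher in soleus by 1.74 ± 0.36 (SE, adjusted p = 0.000317), at 2701, 1881, 1855 and 1808 against 699, 614, 812 and 369 without overlap. Its vehicle signals were 2093 to 3024 in soleus and 1579 to 4654 in gastrocnemius. Of fatty acid synthesis genes 3 of 17 were higher and 2 lower, against 17.3% and 20.2% of all genes. The higher count was 0 without gastrocnemius replicate 2 or 4 and 1 without soleus replicate 1 or 3 or 4, and the lower was 1 without gastrocnemius replicate 2 or 4 or soleus replicate 2 and 4 without gastrocnemius replicate 3 or soleus replicate 1.

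Of the prenyltransferases and small GTPases such as Ras and Rac, whose lipid anchors come from mevalonate, 12 of 25 were lower in soleus and 1 higher, with a median of -0.56. The count of higher members was 0 without gastrocnemius replicate 2 or soleus replicate 2 or 3 or 4 and 2 without soleus replicate 1. Rac2, the Rac of blood cells, differed by -2.64 ± 0.45 (SE, adjusted p = 2.89e-05), Nras by -1.78 ± 0.33 (SE, adjusted p = 0.00011) and Rap1b by -1.54 ± 0.27 (SE, adjusted p = 6e-05). Nras was the other way round in vehicle animals, where soleus was higher by 1.29 ± 0.33 (SE, adjusted p = 0.00818), or by 0.72 as the mean over its probe sets. Rhob, a short-lived small GTPase, did not pass at the high dose, at 0.12 ± 0.29 (SE, adjusted p = 0.797), with overlapping signals of 9721, 6782, 5365 and 7734 and 4632, 6276, 6841 and 9979, and its interaction of -0.92 ± 0.40 (SE, adjusted p = 0.0897) did not pass either.

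Ubiquinone genes were more often higher in soleus. In that list 6 of 12 members were higher and 1 lower, with a median of 0.81, and the count of higher members was 2 without gastrocnemius replicate 4 and 3 without gastrocnemius replicate 2 or soleus replicate 3. The count of lower members was 0 without gastrocnemius replicate 1 or 2 and 2 without gastrocnemius replicate 3. Coq8a, an atypical kinase needed for ubiquinone synthesis, read 17653, 28814, 29999 and 28805 in soleus and 16675, 495, 15638 and 1205 in gastrocnemius, a difference of 2.85 ± 0.65 (SE, adjusted p = 0.000972) that did not pass with only the compared arrays in the fit (adjusted p = 0.0665). Coq10a, which binds ubiquinone, differed by 2.39 ± 0.54 (SE, adjusted p = 0.000899). Coq2, the prenyltransferase of the pathway, did not pass at 0.57 ± 0.34 (SE, adjusted p = 0.198), although it was lower in vehicle soleus, at -1.57 ± 0.34 (SE, adjusted p = 0.00162).

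Among carriers known to move statins or lactate, Slc16a3 (MCT4), the monocarboxylate carrier of fast fibres, read 16300.3, 9491, 14832 and 20201 in vehicle gastrocnemius and 893, 408, 2537 and 378 at the high dose. Soleus was at 835 to 2095 and 433 to 2238 under these conditions. The muscle difference was -3.43 ± 0.75 (SE, adjusted p = 0.00201) in vehicle animals, while the high-dose value of 0.54 ± 0.75 (SE, adjusted p = 0.625) did not pass. In the list of statin uptake, efflux and metabolism genes 3 of 13 were higher in soleus and 3 lower, against 17.3% and 20.2% of all genes. The count of higher members was 1 without gastrocnemius replicate 4. Abcc1 (MRP1) was higher in soleus by 0.94 ± 0.17 (SE, adjusted p = 7.15e-05), and Abcc4 and Abcc5 were lower, at -1.08 ± 0.24 (SE, adjusted p = 0.000806) and -0.81 ± 0.24 (SE, adjusted p = 0.00737), as they were in vehicle animals (-1.44 ± 0.24 SE, adjusted p = 0.000143 and -1.70 ± 0.24 SE, adjusted p = 1.95e-05). The vehicle difference of Abcc5 was -0.24 as the mean over its probe sets and did not pass there (adjusted p = 0.551).

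Most slow fibre genes were higher in soleus at both doses, but by an amount that varied widely with the gastrocnemius arrays. In high-dose animals 16 of 17 tested members were higher and 0 lower, with a median of 3.81. That count was 5 without gastrocnemius replicate 2 and 8 without gastrocnemius replicate 4. In vehicle animals the median was 4.14 with 14 members higher, a count that was 4 without vehicle gastrocnemius replicate 4, 8 without vehicle gastrocnemius replicate 3 and 9 without vehicle soleus replicate 4. Myh7, the slow myosin heavy chain, read 56001, 79213, 70752 and 84162 in high-dose soleus and 42294, 91.9, 37253 and 1719 in high-dose gastrocnemius, so that replicates 1 and 3 lay closer to soleus than replicates 2 and 4, although no array overlapped. The difference of 4.13 ± 1.63 (SE, adjusted p = 0.0484) lost its call without gastrocnemius replicate 2 or 4 or any 1 of the 4 soleus arrays (adjusted p up to 0.308), and was 2.36 without replicate 2. It did not pass with an offset of 1, no filter, quantile normalization, no mean-dependent prior or with only the compared arrays in the fit either. Vehicle gastrocnemius spanned 9892, 84953, 3793 and 165. Tnnt1, slow troponin T, showed the same arrays high, at 16966, 117, 9774 and 517 in gastrocnemius against 34112 to 58859 in soleus. It differed by 4.76 ± 1.32 (SE, adjusted p = 0.0052), not past the threshold without gastrocnemius replicate 2 (adjusted p = 0.0538). Myoz2, a Z-disc protein of slow fibres, had the largest positive difference of all genes, 4.86 ± 1.33 (SE, adjusted p = 0.00486), and it too lost its call without gastrocnemius replicate 2 (adjusted p = 0.0572). Tpm3, slow tropomyosin, had a difference of 4.77 ± 1.31 (SE, adjusted p = 0.00494) on its brightest probe set, but the mean over its probe sets gave -0.41, so its probe sets disagree. Casq2, the calsequestrin of slow and cardiac muscle, was higher by 2.73 ± 0.61 (SE, adjusted p = 0.000697), and by 3.33 ± 0.61 (SE, adjusted p = 0.000331) in vehicle animals.

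Fast fibre genes separated the muscles more in vehicle animals than at the high dose, with an upward interaction for 7 of 16 members, a count that was 4 without gastrocnemius replicate 2 or 4. In vehicle animals 11 members were lower in soleus, with a median of -1.60, a count that was 6 without vehicle soleus replicate 1. At the high dose, where 20.2% of all genes were lower and 17.3% higher, 3 were lower and 4 higher, with a median of -0.09. The first of these counts was 1 without gastrocnemius replicate 1 or 2 or 3 or 4 or soleus replicate 1 or 2 or 3, and the second was 1 without gastrocnemius replicate 2 or 4. The mean log2 level of the list was 15.49, 15.08, 15.53 and 15.52 in vehicle gastrocnemius, 13.80, 12.20, 13.75 and 12.17 in high-dose gastrocnemius and 11.87, 12.42, 12.64 and 12.77 in high-dose soleus. Tnni2 and Tnnt3, fast troponins I and T, read 9477, 27555, 35209 and 26032 and 10383, 27518, 33112 and 25977 in high-dose soleus, and 46425, 17509, 52930 and 18047 and 45354, 23728, 45808 and 24136 in high-dose gastrocnemius. The groups overlapped, and neither gene passed, at -0.42 ± 0.41 (SE, adjusted p = 0.459) and -0.57 ± 0.37 (SE, adjusted p = 0.246). Vehicle gastrocnemius was at 86462 to 98545 and 78368 to 89452 for these genes.

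Among proteins of the fastest fibres, Myh4 passed at the high dose and parvalbumin did not. Myh4 read 2727, 158, 342 and 338 in high-dose soleus and 21554, 18494, 14607 and 17642 in high-dose gastrocnemius, a difference of -5.19 ± 1.51 (SE, adjusted p = 0.00764), and its vehicle gastrocnemius signals were 71475, 61047, 74533 and 89696. Pvalb, the calcium buffer parvalbumin of fast fibres, read 286, 170.3, 437 and 492 and 7580.1, 3144, 3023 and 1279 at the high dose, without overlap, but its difference of -3.22 ± 1.42 (SE, adjusted p = 0.0791) did not pass. Its vehicle gastrocnemius signals were 71066, 39149, 65846 and 84004, and the difference in vehicle animals was -5.86 ± 1.42 (SE, adjusted p = 0.00496). The interaction for Pvalb, 2.64 ± 2.01 (SE, adjusted p = 0.356), did not pass. Actn3, the alpha-actinin of fast fibres, differed by -3.37 ± 1.34 (SE, adjusted p = 0.0492) and lost its call in all 8 fits without 1 array (adjusted p up to 0.127), and with an offset of 1, no filter, median centring, no mean-dependent prior or array weights. Myh2 and Myh1, the IIA and IIX myosins, read 33212, 225, 40547 and 2216 and 12572, 3672, 13742 and 4758 in high-dose gastrocnemius, against 24383 to 50581 and 6912 to 12513 in soleus. Myh1 did not pass (0.43 ± 0.36 SE, adjusted p = 0.389), and Myh2, at 2.91 ± 0.98 (SE, adjusted p = 0.02), did not without gastrocnemius replicate 2 or 4 (adjusted p up to 0.236) or with only the compared arrays in the fit (adjusted p = 0.149). Without replicate 2 the difference of Myh2 was 1.43.

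**Figure D3:**
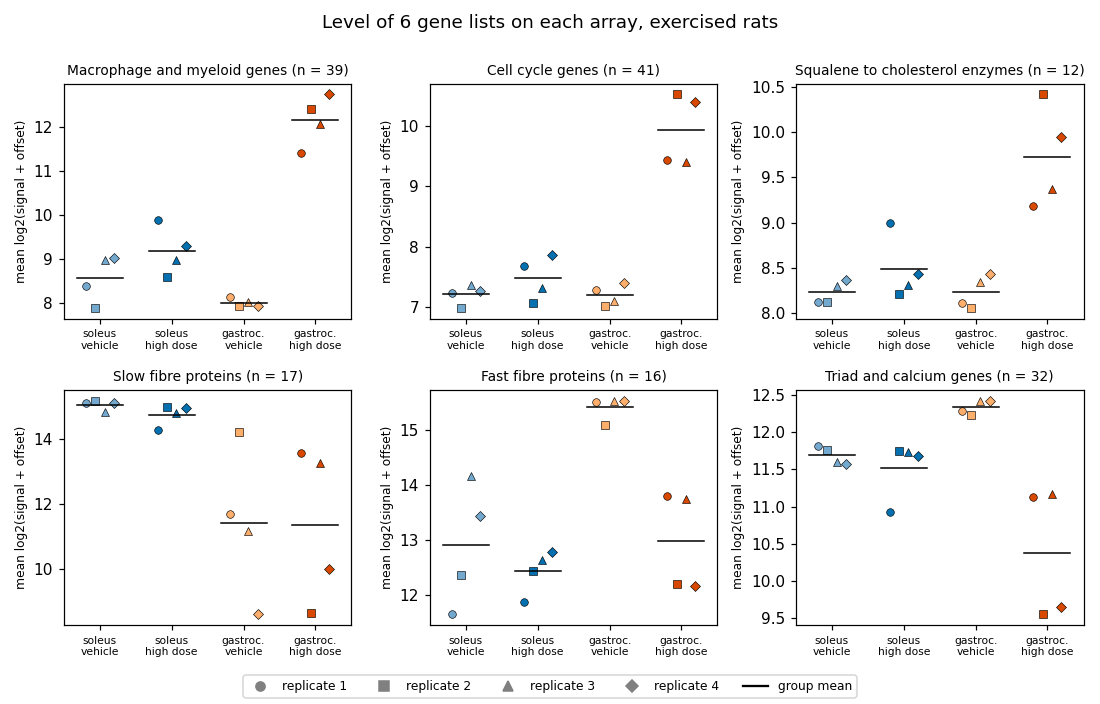
Mean log2(signal + 12.4) of 6 gene lists on each of the 16 arrays of exercised rats, by muscle and dose; marker shapes are the replicates, the line is the group mean, and n is the number of tested members. Macrophage, cell cycle and sterol levels are highest in high-dose gastrocnemius, slow fibre levels scatter between replicates of gastrocnemius at both doses, and fast fibre and triad levels are highest in vehicle gastrocnemius and, in high-dose gastrocnemius, lower on replicates 2 and 4 than on 1 and 3.

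Transcription factors and cofactors known from fibre type programmes were mostly higher in soleus, 19 of 29 with 1 lower and a median of 0.97. In vehicle animals 4 were higher and 4 lower. Prox1, a homeodomain factor of slow fibres, read 1092, 2173, 1986 and 2021 in soleus and 286, 54, 228 and 101 in gastrocnemius, a difference of 3.54 ± 0.48 (SE, adjusted p = 1.71e-06), and it was also higher in vehicle soleus (2.85 ± 0.48 SE, adjusted p = 0.000146). Esrrg, the nuclear receptor ERR-gamma of oxidative fibres, differed by 3.74 ± 0.63 (SE, adjusted p = 2.62e-05) and by 2.56 ± 0.63 (SE, adjusted p = 0.00529) in vehicle animals. Ppargc1a, the coactivator PGC-1 alpha of mitochondrial genes, differed by 2.35 ± 0.56 (SE, adjusted p = 0.00146) at the high dose, at 403, 2586, 1531 and 745 against 381, 81.9, 560.3 and 76.2 with overlap. Its vehicle signals were 330 to 1594 and 706 to 937. The interaction of 2.50 ± 0.79 (SE, adjusted p = 0.0188) lost its call in 4 of 16 fits without 1 array (gastrocnemius replicates 2 and 4, soleus replicate 2 and vehicle soleus replicate 4; adjusted p up to 0.063) and with only the compared arrays in the fit (adjusted p = 0.0503). Vgll2, a cofactor of TEAD factors, was higher by 2.92 ± 0.60 (SE, adjusted p = 0.000302). The fast programme factors Sox6 and Mafa were lower in vehicle soleus, at -2.87 ± 0.42 (SE, adjusted p = 3.58e-05) and -2.41 ± 0.49 (SE, adjusted p = 0.000936). The high-dose gastrocnemius signals of Sox6 were 384, 219.7, 528 and 145, against 2694, 1833, 2487 and 2828 in vehicle, and neither gene passed (0.23 ± 0.42 SE, adjusted p = 0.728 and 0.55 ± 0.49 SE, adjusted p = 0.419). Maf was the list's lower member, at -2.29 ± 0.43 (SE, adjusted p = 0.000102), beside a vehicle difference of -1.84 ± 0.43 (SE, adjusted p = 0.00342).

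Genes of the triad, the membrane junction that couples excitation to calcium release, were more often higher than lower in soleus at the high dose. In vehicle animals 6 of 32 were lower in soleus, against 7.58% of all genes, and 1 was higher, with a median of -0.82. Every vehicle soleus array lay below every vehicle gastrocnemius array for 22 of the 32, against 12% of all genes, and above for 2. The vehicle count of lower members was 2 without vehicle soleus replicate 4 and 3 without vehicle gastrocnemius replicate 4 or vehicle soleus replicate 3. At the high dose 19 were higher and 2 lower, with a median of 1.32, and the count of higher members was 12 without gastrocnemius replicate 2. The count of lower members was 1 without any 1 of these 8 arrays other than gastrocnemius replicate 3. The interaction was upward for 23 members and downward for 0. Stac3, which carries the voltage sensor to the triad, read 7874, 15651, 16036 and 14856 in high-dose soleus and 5272, 410.3, 4898 and 381 in high-dose gastrocnemius, a difference of 3.18 ± 0.64 (SE, adjusted p = 0.000251). Both vehicle muscles were at 10286 to 14154 and 14152 to 15283. Casq1, the calsequestrin that stores calcium in fast fibres, read 12331, 23209, 22783 and 25162 against 17669, 3156, 17478 and 2775, with overlap. It differed by 1.48 ± 0.45 (SE, adjusted p = 0.0108), not past the threshold without gastrocnemius replicate 2 or 4 (adjusted p up to 0.0976) or with only the compared arrays in the fit (adjusted p = 0.107), and its interaction was 2.52 ± 0.64 (SE, adjusted p = 0.00432). Srl, sarcalumenin, and Hrc, the histidine-rich calcium binding protein, differed by 2.31 ± 0.50 (SE, adjusted p = 0.000566) and 2.34 ± 0.54 (SE, adjusted p = 0.00109). Mrln, the micropeptide myoregulin that inhibits the calcium pump, did not pass (1.26 ± 0.58 SE, adjusted p = 0.0941).

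The 2 calcium pump genes of sarcoplasmic reticulum differed in pattern. Atp2a1 (SERCA1), the fast fibre pump, read 16641, 35192, 38431 and 35003 in high-dose soleus and 45814, 18865, 47611 and 18759 in high-dose gastrocnemius, with no called difference (0.01 ± 0.32 SE, adjusted p = 0.989). In vehicle animals it was lower in soleus, at -1.33 ± 0.32 (SE, adjusted p = 0.00433), with gastrocnemius at 80415 to 97396. Its interaction of 1.34 ± 0.45 (SE, adjusted p = 0.0261) lost its call in 6 of 16 fits without 1 array (gastrocnemius replicates 2 and 4, soleus replicates 2 to 4 and vehicle soleus replicate 1; adjusted p up to 0.0813). It was 0.77 with quantile normalization and did not pass there (adjusted p = 0.155) or with only the compared arrays in the fit. Atp2a2 (SERCA2), the slow fibre pump, was higher in soleus by 2.68 ± 0.86 (SE, adjusted p = 0.015), not past the threshold without gastrocnemius replicate 2 or 4 (adjusted p up to 0.0936), and the mean over its probe sets gave 1.05. Mylk2, the kinase of the fast regulatory light chain, was 10722, 6959, 12852 and 12828 in vehicle gastrocnemius and 1466, 117, 1765 and 219.9 at the high dose, while soleus was at 2614 to 4339.6 and 1746 to 4287. The high-dose difference was 2.61 ± 0.60 (SE, adjusted p = 0.00099), the vehicle value of -1.62 ± 0.60 (SE, adjusted p = 0.066) did not pass, and the interaction was 4.23 ± 0.85 (SE, adjusted p = 0.000797).

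Mitochondrial genes were higher in soleus at the high dose and few passed in vehicle animals. For respiratory complex I, 28 of 34 subunits were higher and 0 lower, with a median of 1.0, and the count was 8 without gastrocnemius replicate 4, 9 without gastrocnemius replicate 2 and 16 without soleus replicate 3. In vehicle animals 0 were higher and 0 lower, with a median of -0.08. For complexes II to V with cytochrome c, 27 of 37 were higher, a count that was 6 without gastrocnemius replicate 2 or 4, 12 without soleus replicate 3, 13 without soleus replicate 2 and 16 without soleus replicate 4. The mean log2 level of complex I was 13.0, 13.78, 13.93 and 13.65 in high-dose soleus and 13.25, 11.97, 13.17 and 11.86 in high-dose gastrocnemius, so that soleus replicate 1 lay below gastrocnemius replicates 1 and 3. Ndufa7, an accessory subunit of complex I, read 11339.5, 16368, 14839 and 13741 in soleus and 8917, 3429.7, 7459 and 3237 in gastrocnemius without overlap, and differed by 1.42 ± 0.25 (SE, adjusted p = 4.34e-05). Cox8b, the muscle form of a cytochrome oxidase subunit, differed by 2.18 ± 0.51 (SE, adjusted p = 0.00123), with gastrocnemius replicates at 28106, 2521, 27045 and 2715, and did not pass with only the compared arrays in the fit (adjusted p = 0.0701). Cox6a1, the non-muscle form of another subunit, was higher in vehicle soleus by 1.18 ± 0.23 (SE, adjusted p = 0.000591) and did not pass at the high dose, at -0.45 ± 0.23 (SE, adjusted p = 0.127).

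In the TCA cycle list 14 of 25 members were higher in soleus and 1 lower, with a median of 1.05. Cs, citrate synthase, read 12702, 19775, 22779.9 and 19626 and 14042, 5525, 13996 and 5578 at the high dose. It differed by 1.05 ± 0.32 (SE, adjusted p = 0.011), lost without gastrocnemius replicate 2 or 4 (adjusted p up to 0.0727) or with only the compared arrays in the fit (adjusted p = 0.0573), and its interaction of 1.20 ± 0.45 (SE, adjusted p = 0.0482) lost its call without vehicle gastrocnemius replicate 2, 3 or 4, vehicle soleus replicate 1, 3 or 4, gastrocnemius replicate 2 or 4, or soleus replicate 2, 3 or 4 (adjusted p up to 0.138). That interaction did not pass with no filter, without a mean-dependent prior or as the mean over probe sets either. Pdk1, a kinase that inactivates pyruvate dehydrogenase, read 2569, 4949, 4835 and 4832 in soleus and 896, 333, 924 and 336 in gastrocnemius, a difference of 2.88 ± 0.32 (SE, adjusted p = 1.34e-07), and was also higher in vehicle soleus by 1.81 ± 0.32 (SE, adjusted p = 0.000242). Pdk3, another kinase of that complex, was lower in soleus, at -1.67 ± 0.39 (SE, adjusted p = 0.00125). Idh3a, a subunit of isocitrate dehydrogenase, did not pass (0.42 ± 0.48 SE, adjusted p = 0.539), with signals of 4516, 1444, 4567 and 1386 in high-dose gastrocnemius and 13254 to 16322 in vehicle gastrocnemius.

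In fatty acid uptake and oxidation 29 of 37 members were higher in soleus and 2 lower, with a median of 1.52. In vehicle animals 7 were higher, a count that was 2 without vehicle gastrocnemius replicate 3 or 4, 3 without vehicle gastrocnemius replicate 1 and 4 without vehicle soleus replicate 1 or 2, with a median of 0.72. Fabp3, the fatty acid carrier of heart and slow muscle, differed by 3.21 ± 0.76 (SE, adjusted p = 0.0013), and Acsl1, which activates fatty acids, by 2.56 ± 0.50 (SE, adjusted p = 0.000167). The uncoupling proteins parted. Ucp2, which macrophages express, was lower in soleus, at -1.80 ± 0.41 (SE, adjusted p = 0.000902), with an interaction of -2.72 ± 0.58 (SE, adjusted p = 0.00119), and Ucp3, the muscle form, did not pass at the high dose, at 1.18 ± 0.55 (SE, adjusted p = 0.0959), with an interaction of 2.89 ± 0.77 (SE, adjusted p = 0.00636). Mb, the oxygen store myoglobin, read 39972, 56399, 56466 and 59541 in soleus and 43704, 4894, 49498 and 7286 in gastrocnemius, differing by 1.65 ± 0.40 (SE, adjusted p = 0.00158). The difference was 1.06 without gastrocnemius replicate 2, and it did not pass with only the compared arrays in the fit (adjusted p = 0.107). Its interaction of 1.76 ± 0.56 (SE, adjusted p = 0.0199) was not past the threshold without gastrocnemius replicate 2 or 4 (adjusted p up to 0.0835), being 1.17 without replicate 2. It did not pass with quantile normalization or with only the compared arrays in the fit either.

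Glycolysis and glycogen genes were more often lower than higher in vehicle soleus. In vehicle animals 14 of 35 were lower in soleus and 8 higher, with a median of -1.03, the latter count being 4 without vehicle gastrocnemius replicate 4 and 5 without vehicle gastrocnemius replicate 1. At the high dose, where 20.2% of all genes were lower and 17.3% higher, 5 were lower and 9 higher, with a median of 0.29. The first of these counts was 2 without gastrocnemius replicate 2 or soleus replicate 2 and 3 without gastrocnemius replicate 4 or soleus replicate 3, and the second was 4 without gastrocnemius replicate 2 or 4 and 5 without soleus replicate 2 or 3. The interaction was upward for 18 and downward for 7. Isoforms of 1 enzyme went opposite ways. Pgam2, the muscle phosphoglycerate mutase, read 17198, 1494, 20319.5 and 1503 in high-dose gastrocnemius and 9595, 27479.6, 24938 and 24721 in soleus (1.92 ± 0.61 SE, adjusted p = 0.0135, lost without gastrocnemius replicate 2 or 4, adjusted p up to 0.117). It did not pass with only the compared arrays in the fit either (adjusted p = 0.132). Pgam1, the form of most other tissues, was lower in soleus, at -1.20 ± 0.27 (SE, adjusted p = 0.000866) at the high dose and was higher by 1.11 ± 0.27 (SE, adjusted p = 0.00529) in vehicle animals. Eno1, the non-muscle enolase, was at 0.75 ± 0.18 (SE, adjusted p = 0.00435) in vehicle animals and at -1.16 ± 0.18 (SE, adjusted p = 1.03e-05) at the high dose.

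The subunits of lactate dehydrogenase differed in pattern. Ldha, the fast muscle subunit, was lower in vehicle soleus, at -2.03 ± 0.33 (SE, adjusted p = 9.39e-05) but did not pass at the high dose, at -0.49 ± 0.33 (SE, adjusted p = 0.264), with gastrocnemius at 26958, 15638, 27562 and 13483 against 58809, 51307, 57315 and 63553 in vehicle animals. The interaction was 1.54 ± 0.46 (SE, adjusted p = 0.0137), or 1.01 with quantile normalization. Ldhb, the heart and slow muscle subunit, differed by 3.12 ± 0.95 (SE, adjusted p = 0.0104), not past the threshold without gastrocnemius replicate 2 (adjusted p = 0.0771). Gpd1, glycerol-3-phosphate dehydrogenase, read 27672, 17924, 29330 and 34256 in vehicle gastrocnemius and 3000, 489, 3501 and 566 at the high dose, with soleus at 1661 to 6589 and 1589.7 to 10657. Its vehicle difference was -3.14 ± 0.74 (SE, adjusted p = 0.00387), its high-dose difference of 1.22 ± 0.74 (SE, adjusted p = 0.213) did not pass, and its interaction was 4.36 ± 1.05 (SE, adjusted p = 0.00295). Fbp2, the muscle fructose bisphosphatase, was at -3.68 ± 0.89 (SE, adjusted p = 0.00503) in vehicle animals and did not pass at the high dose (0.29 ± 0.89 SE, adjusted p = 0.838). Slc2a4 (GLUT4), the insulin-responsive glucose carrier, read 6820, 11474, 13150.3 and 10782 in high-dose soleus and 3471, 155, 4643 and 184 in high-dose gastrocnemius, a 12-fold difference (3.59 ± 0.66 SE, adjusted p = 8.17e-05), while the vehicle muscles overlapped at 12660 to 17751 and 11394 to 15437. It was 6.98-fold or 7.37-fold without gastrocnemius replicate 2 or 4, and 19.2-fold or 21.2-fold without replicate 1 or 3.

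Several regulators of energy and growth had the same course, with high vehicle gastrocnemius levels that were not there at the high dose. Mss51, a mitochondrial protein of fast muscle, read 17294, 5759, 26798 and 21516 in vehicle gastrocnemius and 419.9, 124, 364 and 54.1 at the high dose, a level near that of soleus (68, 87.3, 88.5 and 502). The vehicle difference was -7.71 ± 1.46 (SE, adjusted p = 0.000467), the high-dose value of -0.45 ± 1.46 (SE, adjusted p = 0.845) did not pass, and the interaction, 7.26 ± 2.06 (SE, adjusted p = 0.00963), was the largest upward one of all genes. Prkag3, the AMP kinase subunit of fast fibres, was at -3.61 ± 0.71 (SE, adjusted p = 0.000701) in vehicle animals and did not pass at the high dose (0.27 ± 0.71 SE, adjusted p = 0.807), with an interaction of 3.88 ± 1.0 (SE, adjusted p = 0.00514). Mstn, myostatin, the secreted brake on muscle growth, read 607, 157, 544 and 439 in vehicle gastrocnemius and 31.4, 4.6, 6.2 and 4.4 at the high dose, near the offset of 12.4 and so poorly measured. Its interaction was 4.20 ± 1.14 (SE, adjusted p = 0.00709). In the list of AMP kinase and energy buffer genes 10 of 21 were higher in soleus and 2 lower. The first count was 4 without gastrocnemius replicate 2, 5 without gastrocnemius replicate 4 and 6 without soleus replicate 2 or 3 or 4, and the second was 1 without gastrocnemius replicate 1 or 2 or 4 or soleus replicate 2 or 3. Ampd3, an AMP deaminase, was higher in vehicle soleus by 4.07 ± 0.74 (SE, adjusted p = 0.0003) and did not pass at the high dose (0.55 ± 0.74 SE, adjusted p = 0.61).

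Stress response lists divided. For the unfolded protein and integrated stress responses 22 of 42 members were lower in soleus and 2 higher, with a median of -0.72. Sdf2l1, a chaperone partner of the endoplasmic reticulum, read 743, 560.3, 476 and 564 in soleus and 3485, 5272, 2136 and 2838 in gastrocnemius, without overlap, and differed by -2.47 ± 0.34 (SE, adjusted p = 2.37e-06). Edem1, which directs misfolded proteins to degradation, differed by -2.07 ± 0.46 (SE, adjusted p = 0.000662). Atf5, a factor of the mitochondrial stress response, was 1 of the 2 higher members, by 1.98 ± 0.26 (SE, adjusted p = 1.23e-06), as in vehicle animals (1.05 ± 0.26 SE, adjusted p = 0.00594). Chac1, which degrades glutathione, was lower in vehicle soleus, at -2.60 ± 0.62 (SE, adjusted p = 0.00411) but did not pass at the high dose (0.54 ± 0.62 SE, adjusted p = 0.542). Of antioxidant genes 7 of 32 were lower and 8 higher, against 20.2% and 17.3% of all genes. The latter count was 4 without gastrocnemius replicate 2 or 4. Hmox1, heme oxygenase 1, read 798, 412, 388 and 491 in soleus and 2842, 6033, 2206 and 4492 in gastrocnemius, a difference of -2.82 ± 0.50 (SE, adjusted p = 5.77e-05) and an interaction of -3.68 ± 0.71 (SE, adjusted p = 0.000568). Mt2A, a metallothionein, and Akr1b8, an aldo-keto reductase, differed by -2.36 ± 0.60 (SE, adjusted p = 0.00246) and -2.84 ± 0.77 (SE, adjusted p = 0.00435). Gsta4, which clears lipid aldehydes, was higher in soleus by 2.98 ± 0.40 (SE, adjusted p = 1.53e-06), and by 2.01 ± 0.40 (SE, adjusted p = 0.000814) in vehicle animals.

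Heat shock genes were higher in soleus for 11 of 22, with 1 lower and a median of 0.83. The small heat shock genes of muscle Hspb6 and Hspb3 differed by 2.95 ± 0.57 (SE, adjusted p = 0.000157) and 2.73 ± 0.52 (SE, adjusted p = 0.000123). Of p53 targets and apoptosis genes 12 of 28 were lower, with a median of -0.95, and 0 higher, which became 1 without gastrocnemius replicate 1 and 2 without soleus replicate 1. Bcl2a1, a survival gene of blood cells, differed by -3.98 ± 0.58 (SE, adjusted p = 4.24e-06), Gadd45a, a growth arrest gene that rises on denervation, by -1.93 ± 0.50 (SE, adjusted p = 0.00303), and Cdkn1a, the inhibitor p21, by -1.69 ± 0.43 (SE, adjusted p = 0.00257). The interaction for Cdkn1a, at -0.95 ± 0.61 (SE, adjusted p = 0.261), did not pass. Among immediate early genes 8 of 30 were lower, a count that was 5 without gastrocnemius replicate 2 or 4. Fosl1, an AP-1 subunit, read 43.4, 115, 69.7 and 117 in soleus and 810.5, 1043, 258 and 1010.4 in gastrocnemius (-2.91 ± 0.58 SE, adjusted p = 0.000238). Myc differed by -1.92 ± 0.55 (SE, adjusted p = 0.00697), and Fos did not pass (-0.79 ± 0.72 SE, adjusted p = 0.43).

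Lysosome and autophagy genes were lower in soleus for 22 of 34 members and higher for 4, with a median of -0.89, and the interaction was downward for 19. Ctsz, a cathepsin abundant in macrophages, read 1465, 606, 652 and 980.5 in soleus and 5808, 9575, 6678 and 9088 in gastrocnemius (-3.12 ± 0.33 SE, adjusted p = 9.54e-08). Ctsl, a cathepsin that also rises in wasting muscle, differed by -2.16 ± 0.32 (SE, adjusted p = 5.12e-06), and Grn, progranulin, by -1.84 ± 0.35 (SE, adjusted p = 0.000144). Bnip3, a mitophagy receptor, was higher in soleus by 1.84 ± 0.31 (SE, adjusted p = 2.39e-05). The macrophage list was high on the same gastrocnemius arrays, and its part in the lysosomal difference was not tested. Of 35 constitutive proteasome subunits, 3 were lower and 1 higher, the latter being 4 without gastrocnemius replicate 1 or soleus replicate 1.

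In the list of atrophy and growth control genes 7 of 30 were higher in soleus and 2 lower, with a median of 0.26. The shares of all genes were 17.3% and 20.2%. The first count was 4 without gastrocnemius replicate 2 or 4. The muscle ubiquitin ligases Fbxo32 (atrogin-1) and Trim63 (MuRF1) did not pass, at 0.42 ± 0.49 (SE, adjusted p = 0.551) and 0.45 ± 0.52 (SE, adjusted p = 0.548). Trim63 read 1867, 5597, 4735 and 3681 in soleus and 10099, 1175, 3299 and 1311 in gastrocnemius, with overlap. Klf15, a glucocorticoid target of fuel use, and Foxo4, a forkhead factor, were higher by 2.15 ± 0.39 (SE, adjusted p = 6.75e-05) and 1.33 ± 0.30 (SE, adjusted p = 0.000861). Foxo4 was lower in vehicle soleus (-1.11 ± 0.30 SE, adjusted p = 0.0118).

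Of satellite cell and regeneration genes 4 of 25 were lower and 3 higher, against 20.2% and 17.3% of all genes. The latter count was 5 without gastrocnemius replicate 3. Mymk, myomaker, which fuses myoblasts, read 57.5, 105, 51.1 and 156 in soleus and 311, 225, 837 and 582 in gastrocnemius and differed by -2.20 ± 0.46 (SE, adjusted p = 0.000406). Myod1, a factor of myoblasts that fast fibres also express, was lower in soleus, at -2.04 ± 0.54 (SE, adjusted p = 0.0034), and at -2.82 ± 0.54 (SE, adjusted p = 0.000488) in vehicle animals. Myog, myogenin, did not pass (-0.37 ± 0.44 SE, adjusted p = 0.569). Myh3, embryonic myosin, was higher in soleus at both doses (3.25 ± 0.89 SE, adjusted p = 0.00486 and 5.03 ± 0.89 SE, adjusted p = 0.000232), at 6189 to 8689.5 in high-dose soleus, 3670.5 to 9791 in vehicle soleus, 384, 269, 3159 and 832 in high-dose gastrocnemius and 123, 254, 377 and 96.4 in vehicle gastrocnemius. Probes of myosin genes can pick up related myosins, and its interaction of -1.78 ± 1.26 (SE, adjusted p = 0.316) did not pass. In the synapse and denervation list 3 of 16 were higher and 2 lower, against 17.3% and 20.2% of all genes. These member counts were 1 without gastrocnemius replicate 2 or soleus replicate 4, and 1 without soleus replicate 3, in this order. Chrna1, an acetylcholine receptor subunit that rises on denervation, did not pass (0.84 ± 0.63 SE, adjusted p = 0.334).

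Stretch response and Z-disc genes were higher in soleus for 21 of 29 members and lower for 2, with a median of 1.69, and the count of higher members was 11 without gastrocnemius replicate 2. Leaving out any 1 of the 8 arrays left 1 lower. Ldb3, which ties alpha-actinin to the Z-disc, read 13592, 25303, 25134 and 25028 in soleus and 7743, 65.8, 10158 and 382 in gastrocnemius, where replicates 2 and 4 were far below replicates 1 and 3, and differed by 4.11 ± 0.87 (SE, adjusted p = 0.000441). The vehicle muscles were at 26036 to 33281 and 25046 to 30158. Fhl2, a LIM protein of titin, was higher by 2.13 ± 0.51 (SE, adjusted p = 0.00161) and by 4.73 ± 0.51 (SE, adjusted p = 4.48e-07) in vehicle animals. Ankrd1, a stretch and injury response protein, was lower in soleus, at -2.22 ± 0.68 (SE, adjusted p = 0.0108), at 1360.1, 1443, 1542 and 1628 against 12375, 5371, 7522 and 4792, and its interaction of -2.18 ± 0.96 (SE, adjusted p = 0.0908) did not pass.

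Most extracellular matrix genes did not pass at the high dose. Of 46 members, 10 were lower in soleus at the high dose, against 20.2% of all genes, with a median of -0.49. That count was 3 without gastrocnemius replicate 2 or 4 or soleus replicate 2. In vehicle animals 9 were higher in soleus, a count that was 4 without vehicle gastrocnemius replicate 4 or vehicle soleus replicate 3 and 5 without vehicle gastrocnemius replicate 1 or vehicle soleus replicate 4, and the interaction was downward for 18. Vcan, the proteoglycan versican, read 542, 352, 613 and 808 in soleus and 4573, 7224, 2034 and 4999.6 in gastrocnemius and differed by -2.92 ± 0.47 (SE, adjusted p = 1.7e-05). The fibrillar collagens Col1a1 and Col3a1 did not pass, at 0.17 ± 0.65 (SE, adjusted p = 0.875) and -0.73 ± 0.37 (SE, adjusted p = 0.133), with Col1a1 bright on all 8 arrays (30251, 28800.4, 37441 and 36446 in soleus and 29404, 25614, 34004 and 29176 in gastrocnemius, overlapping). Among proteases and inhibitors 6 of 18 were lower and 2 higher, and the count of lower members was 12 without soleus replicate 1. The count of higher members was 1 without soleus replicate 1. Mmp12, macrophage elastase, read 50.6, 76.9, 49.2 and 30.3 in soleus and 496, 1643, 25542 and 2841 in gastrocnemius, where replicate 3 was the highest by far (-5.50 ± 0.78 SE, adjusted p = 3.25e-06). Timp1, an inhibitor of metalloproteinases induced in injury, differed by -3.20 ± 0.66 (SE, adjusted p = 0.0003) with an interaction of -4.78 ± 0.93 (SE, adjusted p = 0.000591), while Timp3 was higher in soleus by 2.19 ± 0.41 (SE, adjusted p = 9.62e-05), or by 1.40 as the mean over its probe sets.

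Among marker lists of non-immune cell types, that of fat also differed between the muscles at the high dose. In the adipocyte list 6 of 13 were higher in soleus and 0 lower, with a median of 1.86, and 5 were higher in vehicle animals, the latter count being 2 without vehicle gastrocnemius replicate 1 or 4 or vehicle soleus replicate 3 or 4 and 3 without vehicle gastrocnemius replicate 3. Mean log2 levels were 12.56, 10.61, 10.87 and 10.88 in high-dose soleus and 9.64, 8.92, 9.83 and 9.0 in gastrocnemius. Cidec, a protein of fat droplets, read 9139, 186, 232 and 281 and 34.5, 23, 6.8 and 6.1. Its difference of 4.44 ± 1.28 (SE, adjusted p = 0.00739) lost its call without soleus replicate 1 (adjusted p = 0.056), as did that of the smooth muscle myosin gene Myh11 (1.81 ± 0.58 SE, adjusted p = 0.0148, and 1.12 without that array, adjusted p = 0.119). Of smooth muscle genes 3 of 13 were higher and 0 lower, the first count being 1 without soleus replicate 1. Of tendon and fibroblast genes 3 of 12 were higher and 1 lower, the latter being 0 without gastrocnemius replicate 2 or 4 or soleus replicate 2 or 3 or 4. Tnmd, a tendon protein, was higher in soleus by 3.22 ± 0.88 (SE, adjusted p = 0.00479). Of ribosomal protein genes 8 of 19 were lower, a count that was 3 without gastrocnemius replicate 2 or 4, 4 without soleus replicate 2 and 5 without soleus replicate 1. Endothelial, Schwann cell, mast cell and erythroid lists had at most 1 called member in each direction.

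Genes with large differences outside the lists lay in both directions. Kcnn4, a calcium-activated potassium channel of blood cells and proliferating smooth muscle, read 101, 86, 62.8 and 38.4 in soleus and 1557, 1410, 1501 and 1972 in gastrocnemius (-4.32 ± 0.70 SE, adjusted p = 1.74e-05, interaction -5.65 ± 0.99 SE, adjusted p = 0.000293). Myo1f, a myosin of immune cells, and Cotl1, an actin-binding protein of leukocytes, differed by -4.12 ± 0.61 (SE, adjusted p = 5.7e-06) and -4.12 ± 0.63 (SE, adjusted p = 8.83e-06), and the interaction for Myo1f was -5.17 ± 0.87 (SE, adjusted p = 0.000222). Tubb6, a beta-tubulin that rises in regenerating and dystrophic fibres, read 1144, 392, 518 and 550.4 in soleus and 12854, 14128, 7518 and 14868 in gastrocnemius (-4.29 ± 0.58 SE, adjusted p = 1.74e-06). On the other side, Perm1, a muscle protein induced by PGC-1, was higher in soleus by 4.22 ± 0.82 (SE, adjusted p = 0.00016), Asb18, a muscle SOCS box protein, by 4.40 ± 0.67 (SE, adjusted p = 8.39e-06), and Mettl21c, a methyltransferase of oxidative fibres, by 4.25 ± 0.73 (SE, adjusted p = 3.45e-05). Tmem52 read 2097, 5969.8, 5060.1 and 4768 in soleus and 1336, 44.4, 1649 and 20.5 in gastrocnemius (4.04 ± 0.79 SE, adjusted p = 0.000173), against 7414 to 9345 in vehicle gastrocnemius, with an interaction of 4.92 ± 1.12 (SE, adjusted p = 0.00195). Chad, a cartilage matrix protein, differed by 4.69 ± 1.39 (SE, adjusted p = 0.00856), not past the threshold without gastrocnemius replicate 2 or 4 (adjusted p up to 0.0648), and Alb, albumin, by 4.28 ± 1.31 (SE, adjusted p = 0.011), lost without soleus replicate 1 (adjusted p = 0.0719), whose signal was the highest of 11559, 362, 282 and 526.

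**Figure D4:**
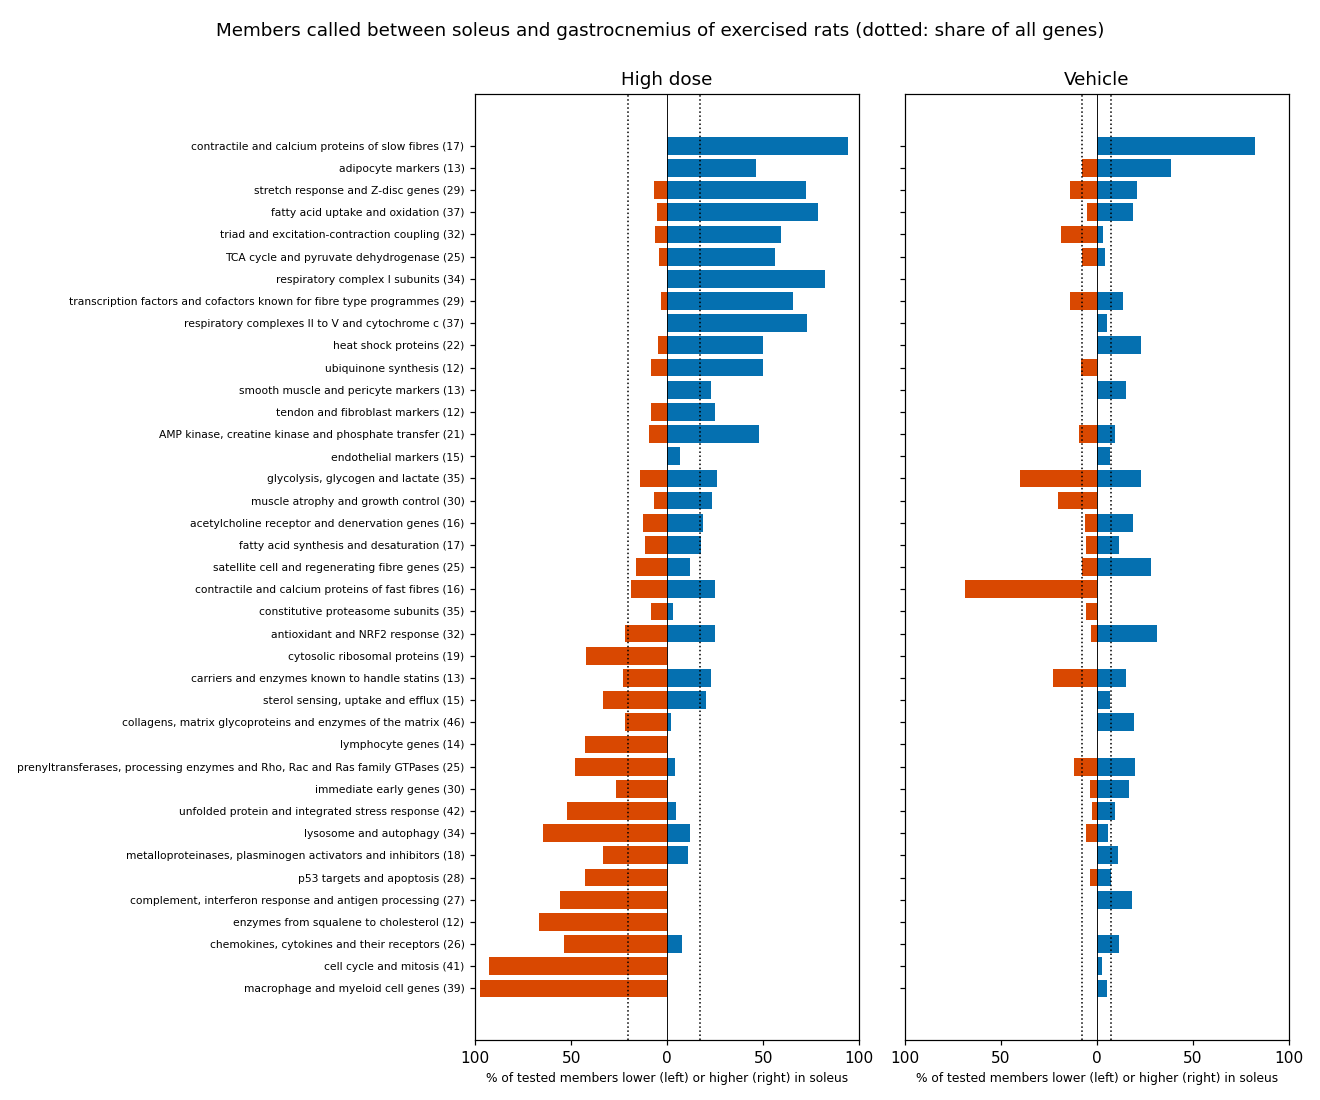
Share of tested members (percent, number tested in brackets) lower (left, orange) or higher (right, blue) in soleus than in gastrocnemius of exercised rats, at the high dose and in vehicle animals, for gene lists with 12 or more tested members, ordered by their median at the high dose; dotted lines give the share of all genes. Macrophage and cell cycle genes are nearly all lower at the high dose, slow fibre genes higher at both, and fast fibre genes are lower for 11 of 16 members in vehicle animals and 3 of 16 at the high dose.

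No change of the muscle difference with exercise passed the test at the high dose. The test of that change, between the 8 exercised and the 6 unexercised high-dose arrays, called 0 genes with limma (0%), with 779 probe sets (3.59%) at an unadjusted p under 0.05. With array weights estimated by limma the same test called 1198 genes, so the count of 0 holds for equal weights. In unexercised high-dose rats, 765 genes (6.55%) differed between soleus and gastrocnemius, 392 (3.36%) lower and 373 (3.19%) higher in soleus. Each of these 6 arrays moved that count by over 1.5 times: it was 40, 45 or 2621 without gastrocnemius replicate 1, 2 or 3, and 168, 199 or 445 without soleus replicate 1, 2 or 3. With only those arrays in the fit it was 13. A count lower than in exercised rats does not show a smaller difference, since the unexercised groups had 3 arrays each and the change itself did not pass. The macrophage list had a median of -1.80 in unexercised rats. Its change with exercise had a median of -1.11.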

How the data were processed

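Gene expression in rat soleus and gastrocnemius was measured on 45 single-channel Affymetrix arrays. The deposited values are MAS5 signals, a linear intensity per probe set, per the submitters' processing notes; the version of the software, and the target to which it scaled, are not given in the sources used. The trimmed mean was 600.203 to 600.308 on every array, and no pair of arrays was identical.

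Values were taken as log2(signal + 12.4), the offset being the 10th percentile of all values. After removal of 57 control probe sets, the 21729 of 31042 with a mean log2 value at or above the 30th percentile (6.03) were tested. Group means of all 12 groups were fitted with limma 3.58.1 in R 4.3.3 (eBayes with a mean-dependent prior, 33 residual degrees of freedom), with Benjamini-Hochberg adjustment and a threshold of 0.05. The fit was tested on simulated data. Gene names came from the platform annotation (20826 probe sets with 1 symbol, 436 with several, 9780 with none), and 20758 were matched to RefSeq. For each of 11684 genes the brightest probe set tested, by mean, stands for the gene. The 44 gene lists hold 1204 symbols, of which 979 were tested; some genes are not reported here. Members and lists were chosen with earlier results of these data known. Genes named are those with the 12 largest differences in each direction for the high-dose difference and the interaction, the 3 largest in each direction per list, and a fixed set of textbook genes, from which the text takes a selection. Promoters are RefSeq's, build GRCr8. Soleus samples whose title does not mention exercise were taken as unexercised. Alternatives covered the offset, the filter, the scaling, the arrays in the fit, the replicate number as a block, array weights, the prior, the probe set rule and leaving out each array.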

Additional observations from a re-analysis of the deposited data

Results flagged for a closer look

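Soleus replicate 1 at the high dose lay far from the other three for many of the genes named here, by Dixon's test at the 95% level, which sets apart about 1 group in 20 by chance. Of 382 groups of 4 values tested, 44 had such a value, and 37 of these were on this array. It was the lowest soleus array, with the MAS5 signal in brackets, for Fdps (1817), Coq8a (17653), Tnni1 (36779.5), Tnnt1 (34112), Tpm3 (21377), Myoz2 (28469), Casq1 (12331), Atp2a1 (16641), Prox1 (1092), Stac3 (7874), Srl (7073), Hrc (7935), Mrln (539), Pgam2 (9595), Ldhb (28482), Mb (39972), Pdk1 (2569), Ldb3 (13592) and Asb18 (1161). It was the highest for Acat2 (474), Insig1 (2173), Srebf1 (2701), Npc2 (6898), Nras (1507), Cox6a1 (7615), Cidec (9139), Myh11 (10582) and Alb (11559). Its mean log2 level was the lowest for fibre type regulators (10.1), triad genes (10.9), ubiquinone genes (10.1) and proteasome subunits (11.7) and the highest for unfolded protein and integrated stress genes (10.4), adipocyte genes (12.6), endothelial genes (11.3), smooth muscle genes (11.6) and Schwann cell and nerve genes (11.6). Cidec is a fat droplet protein, Myh11 the smooth muscle myosin and Alb albumin, and what set this sample apart was not tested.

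Other arrays stood apart for single genes. Abcc1 had its highest high-dose soleus signal, 2698, on replicate 4. Mss51 had its highest high-dose soleus signal, 502, on replicate 4. Eno1 had its lowest high-dose gastrocnemius signal, 9094, on replicate 1. Acsl1 had its highest high-dose soleus signal, 16773, on replicate 3. Gsta4 had its highest high-dose gastrocnemius signal, 207, on replicate 3. Mstn had its highest high-dose gastrocnemius signal, 31.4, on replicate 1. The mean log2 level of antioxidant genes, 11.7, was the highest of high-dose gastrocnemius on replicate 1.

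The muscle difference changed with the drug, by the interaction test in limma with Benjamini-Hochberg adjustment, for 30 of the genes whose interaction is given above. The interaction in log2 units was downward for the myeloid, chemokine, proliferation, sterol and stress genes Ccl2 (-6.54), Spp1 (-6.24), Gpnmb (-5.96), Ccl7 (-5.81), Kcnn4 (-5.65), Lilrb4 (-5.31), Myo1f (-5.17), Fcgr2b (-4.98), Arg1 (-4.85), Timp1 (-4.78), Mki67 (-4.28), Cd68 (-4.16), Sqle (-3.89), Hmox1 (-3.68), Ucp2 (-2.72), Insig1 (-2.46) and Idi1 (-2.31). It was upward for the muscle fibre and metabolic genes Mss51 (7.26), Tmem52 (4.92), Gpd1 (4.36), Mylk2 (4.23), Mstn (4.20), Prkag3 (3.88), Ucp3 (2.89), Casq1 (2.52), Ppargc1a (2.50), Mb (1.76), Ldha (1.54), Atp2a1 (1.34) and Cs (1.20). The 4 high-dose soleus and 4 vehicle soleus arrays differed for 0 genes in the same fit, and the gastrocnemius groups for 6120 of 11684.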

How the results depend on the processing

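For the exercised comparisons and the change with exercise, the counts of genes stayed within 1.5 times of those reported, and a count of 0 stayed 0, with an offset of 1 or 32, with no filter or a stricter one, with quantile normalization or median centring of the arrays, without a mean-dependent prior, with the mean over a gene's probe sets, and with only the compared arrays in the fit. Array weights estimated by limma raised them: 6950 genes differed at the high dose (3162 higher and 3788 lower in soleus), 3667 in vehicle animals, 6125 in their interaction (2658 upward, 3467 downward), 1 with the drug in soleus and 1198 in the change with exercise. Leaving out each array in turn gave 3047 to 4667 genes at the high dose (1353 to 2135 higher, 1694 to 2532 lower), 1106 to 2003 in vehicle animals, 2384 to 3928 for the interaction, 5183 to 6161 with the drug in gastrocnemius, and 0 in soleus and for exercise. The lowest high-dose count came without gastrocnemius replicate 2 and the highest without soleus replicate 1. The unexercised high-dose comparison, whose alternatives were chosen after seeing the data, gave 596 to 839 genes under the offsets, filters, scalings, prior and probe set rule above. It gave 6093 with array weights (2922 higher, 3171 lower) and 13 with only its 6 arrays in the fit (13 higher, 0 lower). Without 1 array it gave 40 to 2621 (30 to 1156 higher, 10 to 1465 lower), and with the replicate number as a block in limma 0 (1951 at an unadjusted p under 0.05). Deviations of same-numbered soleus and gastrocnemius samples from their group means correlated at -0.34, -0.20, 0.22 and -0.07 at the high dose. Pairs of other numbers ranged there from -0.29 to 0.36. In vehicle animals the same-numbered values were 0.09, 0.04, 0.03 and 0.08, and other pairs ranged from -0.08 to 0.04. Such correlations cannot decide whether samples of the same number came from 1 rat. With the replicate number as a block, the compared arrays alone gave 1532 genes at the high dose (545 higher, 987 lower) and 2663 in vehicle animals. That block ended the calls of 39 of the 117 genes chosen for the text whose high-dose difference passed, of 0 of 49 vehicle differences and of 4 of 30 interactions. Fitting only the compared arrays without the block ended 8, 1 and 3. Fibre and triad genes among the 39 were Myh7, Myh2, Tnni1, Tnnt1, Myoz2, Mybpc1, Casq1, Atp2a2, Mylk2, Stac3, Srl, Hrc and Ldb3. Metabolic and sterol genes among them were Slc2a4, Pgam2, Ldhb, Cs, Mb, Ndufa7, Cox8b, Pdk3, Fabp3, Ucp2, Coq8a, Coq10a, Acat2 and Fdps. The rest were S100a9, Abcc4, Abcc5, Vgll2, Ppargc1a, Hspb6, Klf15, Foxo4, Myc, Myh11, Chad and Tmem52. Each other alternative ended at most 3 of the high-dose calls, 3 of the vehicle calls and 2 of the interactions. The stricter filter kept only 104 of the 117 high-dose calls, 48 of the 49 vehicle calls and 26 of the 30 interactions for testing. It removed the high-dose calls of Mki67, Cks2, Plk1, Aurkb, Mmp12, Sqle, Soat1, C3ar1, Ccr1, Bcl2a1, Mymk, Fosl1 and Kcnn4. These genes were therefore not tested under that filter. Array weights raised 11 of the high-dose log2 differences and 2 interactions by over 1.5 times, among them Coq8a, Hrc, Hspb6 and Cox8b. High-dose calls were also gained among the 147 genes chosen for the text. Array weights added 17, quantile normalization 3, fitting only the compared arrays 2 and the block 1. Genes that reversed had high-dose differences that did not pass the threshold, apart from Tpm3, at -0.41 as the mean over its probe sets. With quantile normalization Col1a1 was at -0.092, Rhob at -0.017 and Atp2a1 at -0.33. With array weights Rhob was at -0.20, Tnni2 at 0.38, Tnnt3 at 0.018, Mss51 at 0.58 and Myog at 0.18. Without 1 array, Rhob ranged from -0.060 to 0.31, Atp2a1 from -0.21 to 0.29, Sox6 from -0.081 to 0.51, Fbp2 from -0.42 to 0.85 and Fbxo32 from -0.015 to 0.94. The cause of these shifts was not tested. With 4 arrays a group, the number of arrays limits precision, and signals near the offset of 12.4 carry little information on size.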
